A study of Mus musculus with 9 samples.

Results

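Cadherins are adhesion proteins that cross the cell membrane and bind cadherins on the next cell when calcium is present, and protocadherins are the largest group of their relatives. Here every gene whose symbol was *Cdh* followed by digits, or began with *Pcdh*, was taken as a member, without *Cdh23* and *Pcdh15*. This gave 91 members among the 43808 genes of the count files: 22 cadherins, 11 solitary protocadherins and 58 clustered protocadherins (14 *Pcdha*, 22 *Pcdhb* and 22 *Pcdhg*). A member was compared between genotypes when at least 20 reads occurred in at least 2 of the 3 libraries of any genotype, which held for 68 members of 15184 genes. These were 13 cadherins, 10 solitary protocadherins and 45 clustered protocadherins.

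The RNA came from hair cells (HCs), the mechanosensory cells of the inner ear, of mice at postnatal day 1. Cochlear and vestibular HCs were sorted together as cells positive for both green fluorescent protein and the epithelial surface protein CD326. All mice carried *Atoh1/nGFP*, a reporter that follows *Atoh1* and labels HC nuclei, and they were wild-type (*Mir96*+/+), heterozygous (*Mir96*+/Dmdo) or homozygous mutant (*Mir96* Dmdo/Dmdo). Each genotype had 3 libraries of 1 mouse each: mice 44, 55 and 59 were wild-type, 45, 48 and 51 heterozygous, and 43, 46 and 47 homozygous mutant. The Dmdo line was on C3HeB/FeJ and was crossed to a reporter line on C57BL6, the allele is present in every cell of the mouse, and auditory and vestibular HCs are mixed in each library.

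Classical cadherins join neighbouring cells at adherens junctions, where their tails hold catenins and, through these, actin. In the sensory epithelia of the ear, *Cdh1* (E-cadherin), *Cdh2* (N-cadherin) and *Cdh4* (R-cadherin) are known from the contacts between HCs and supporting cells. Solitary protocadherins of the delta groups act in cell sorting and axon growth. Clustered protocadherins lie in tandem in 3 arrays, and a neuron uses a small choice of their promoters, so that neighbouring neurons display different sets of isoforms.

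The Dmdo allele changes the seed of miR-96, the stretch by which this microRNA pairs with the 3′ UTR of a target. The mature sequence from RefSeq and the sequence with the Dmdo substitution, A7U counted from the 5′ end, are printed to show which letters differ, with the seed (bases 2 to 8) in capitals.
wild-type miR-96-5p: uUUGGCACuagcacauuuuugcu
Dmdo miR-96-5p: uUUGGCUCuagcacauuuuugcu

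The reverse complement of the wild-type seed is GTGCCAA and that of the Dmdo seed GAGCCAA. Among 3′ UTRs annotated in GENCODE vM21 (GRCm38), GTGCCAA occurred in 3 of the 68 tested members (4.41%) and in 12.4% of the 12993 tested genes with a 3′ UTR. GAGCCAA occurred in 3 tested members (4.41%) and in 13.3% of those genes. Matches of 8 bases, which add an A after the site, were found in 1 member (1.47%) for the wild-type seed and in 2 (2.94%) for the Dmdo seed, against 3.93% and 4.09% of the genes. Only the sense strand of the transcript was searched, and a match describes letters and no binding. None of the 45 tested clustered members held the wild-type site, while *Pcdhb11* and *Pcdhb19* held the Dmdo site. The sites of the other tested members are shown, on the plus strand of GRCm38 and with the 7 bases that match the seed in capitals and at the coordinates given, since these are the members whose letters match a seed.
*Cdh20*, wild-type site, chr1:104995194-104995200: tctcttctgaGTGCCAAatgtggagat
*Pcdh11x*, wild-type site, chrX:120910103-120910109: tttataacatGTGCCAAttatctcact
*Pcdh17*, wild-type site, chr14:84536255-84536261: agaactggttGTGCCAAcatgtgatgg
*Pcdh17*, Dmdo site, chr14:84534636-84534642: ctgtgcatatGAGCCAAattgttgagt

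These 5 genes were low, with at most 359 reads in a library. *Cdh20* had 186, 99 and 1 reads in wild-type, 78, 0 and 257 in heterozygous and 1, 210 and 176 in homozygous mutant libraries. *Pcdh17*, which holds a site for each seed, had 112, 62 and 86 reads in wild-type, 0, 73 and 2 in heterozygous and 34, 62 and 157 in homozygous mutant libraries. *Pcdh11x* had 31, 59 and 1 reads in wild-type, 83, 84 and 105 in heterozygous and 0, 2 and 150 in homozygous mutant libraries. The wild-type and homozygous mutant libraries overlapped for all 3, and their log2 fold changes between these genotypes lay between -0.33 for *Pcdh17* and 0.50 for *Cdh20*, with standard errors over 2. The *Pcdhb11* and *Pcdhb19* log2 fold changes were -0.18 and 0.06 with standard errors of 2.28 and 1.74.

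The libraries held between 18175317 and 34873964 counted reads, of which the members took 0.136% to 0.225%. Of the members, 33 to 62 had at least 20 reads in a library, and 11871 to 14935 genes did so. Wild-type 59 and homozygous mutant 46 had the fewest reads, the fewest genes at 20 reads and the largest shares of tested genes at 5 or fewer reads (19.7% and 15.9%, against 6.05% to 10.9% in the others). A lower RNA integrity applied to 1 wild-type and 1 homozygous mutant sample of the study, and whether these are the same libraries cannot be told. The 12 HC markers summed to 11520 to 17470 CPM (counts scaled to library size) in wild-type libraries. This sum was 10890 to 14320 in heterozygous and 8588 to 10530 in homozygous mutant libraries. Each of the 12 had reads in every library.

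In the homozygous mutant HCs 42 of the 68 tested members lay below wild-type and 26 above, with a median log2 difference of -0.28 against -0.02 over all tested genes. The threshold for a call, in the quasi-likelihood test of edgeR, was a fold change above 1.5 together with an adjusted p under 0.1 (a false discovery rate of 10%). It was passed by 0 members in either direction, beside 1.15% of all tested genes (0.237% higher and 0.915% lower). At an unadjusted p under 0.05, 10 members were lower and 1 higher in edgeR, next to 8.19% and 4.92% of all tested genes. Among these, *Pcdhb1*, *Pcdhga6* and *Pcdhgc4* passed the read filter only through the genotype where they were high. DESeq2 called 6 members lower, beside 4.02% of all tested genes lower and 6.36% in either direction, and limma-voom with quality weights called 0, beside 2.23% in either direction. Without overlap between the libraries of the genotypes, 8 members were lower and 0 higher, beside 8.9% and 7.59% of all tested genes. The count of non-overlapping members is thus near this background for the lower and under it for the higher ones.

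The members outside the clusters made up 6 of the 10 lower ones. Of these 23 tested genes, 17 lay below wild-type with a median of -0.38, and the 6 with an unadjusted p under 0.05 were *Cdh13*, *Cdh24*, *Pcdh1*, *Pcdh7*, *Pcdh8* and *Pcdh20*. Each of the 6 had its 3 homozygous mutant libraries below its 3 wild-type libraries. They were picked by p from the same values, so this is no separate result. Over all tested genes, 8.19% were lower at an unadjusted p under 0.05 in edgeR and 8.9% were lower without overlap. Of the 45 clustered members, 25 lay below and 20 above wild-type, with a median of -0.15. The median outside the clusters was -0.02 without wild-type 55, -0.13 without homozygous mutant 43 and 0.08, with 11 of 23 genes below 0, when a term for mouse numbers of 47 or lower was in the model. All 3 homozygous mutants have such numbers, but only 1 wild-type and 1 heterozygous mouse.

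**Figure D1:**
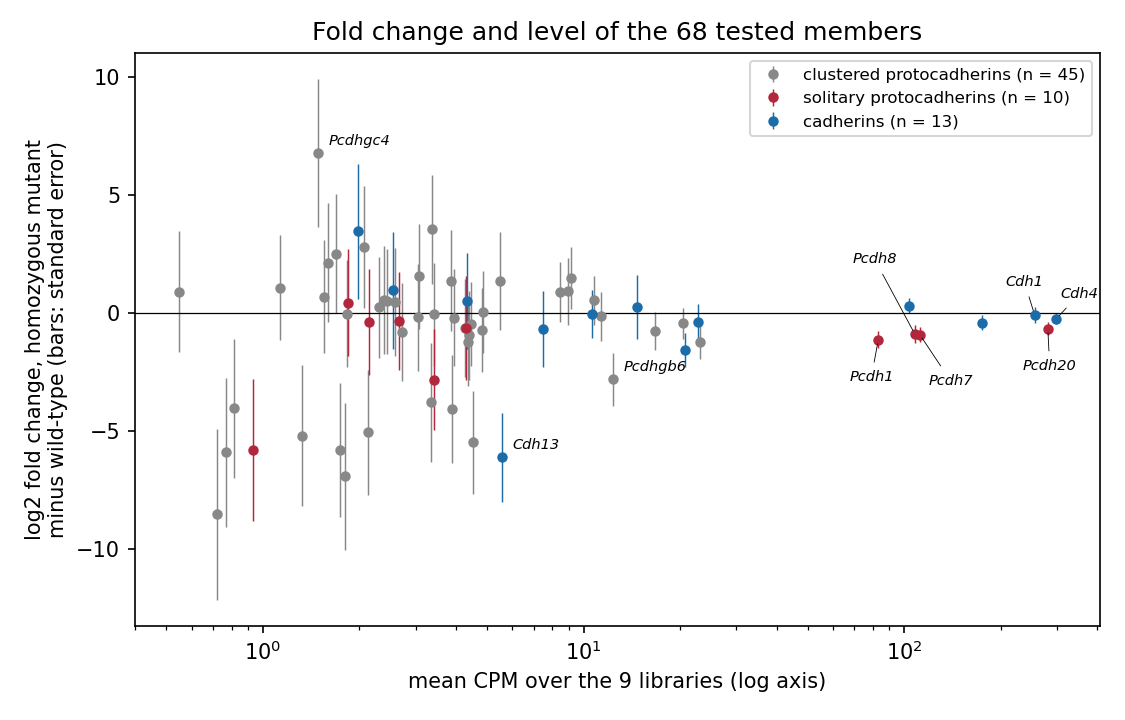
Mean CPM over the 9 libraries (horizontal log axis) and log2 fold change of homozygous mutant minus wild-type HCs (vertical axis, edgeR) for the 68 tested members, each a point with its standard error as a bar, coloured by clustered protocadherins, solitary protocadherins and cadherins. The *Pcdh1*, *Pcdh7*, *Pcdh8* and *Pcdh20* points lie below 0 at the high levels with short bars, while members under 10 CPM scatter in both directions with bars of several log2 units.

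Among the 10 members that were lower at an unadjusted p under 0.05 in edgeR, the solitary protocadherins *Pcdh1*, *Pcdh7*, *Pcdh8* and *Pcdh20* had the smallest standard errors. *Pcdh1*, a delta-1 protocadherin of epithelia, had 89.2, 150 and 76.1 CPM in wild-type, 78.5, 123 and 86.3 in heterozygous and 58.3, 35.9 and 49.8 in homozygous mutant libraries. The homozygous mutant libraries were the 3 lowest of the 9, and the heterozygous ones overlapped wild-type. Relative to wild-type, the homozygous mutant level differed by a log2 fold change of -1.13 ± 0.36 (SE, n = 3 per genotype, edgeR adjusted p = 0.176), and between heterozygotes and wild-type -0.13 ± 0.35.

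*Pcdh7*, a delta-1 protocadherin (chromosome 5, 57717967 to 58133230 on GRCm38), had 129, 121 and 167 CPM in wild-type, 95.5, 133 and 141 in heterozygous and 65.1, 63.9 and 92.2 in homozygous mutant libraries. Here too the 3 homozygous mutant libraries were the lowest of the 9. The log2 fold change was -0.91 ± 0.30 (SE, n = 3, edgeR adjusted p = 0.196). The other delta-1 genes, *Pcdh9* and *Pcdh11x*, were low, with at most 297 and 150 reads in a library. *Pcdh9* had 5, 58 and 1 reads in wild-type, 297, 183 and 0 in heterozygous and 34, 4 and 13 in homozygous mutant libraries.

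*Pcdh20*, the most abundant solitary protocadherin (chromosome 14, 88464743 to 88471396), had 288, 383 and 316 CPM in wild-type, 410, 246 and 258 in heterozygous and 166, 238 and 221 in homozygous mutant libraries. The homozygous mutant libraries lay below the other 6, although homozygous mutant 46 came close to heterozygous 48. The log2 fold change was -0.66 ± 0.26 (SE, n = 3, edgeR adjusted p = 0.288).

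*Pcdh8*, a delta-2 protocadherin known from synapses (chromosome 14, 79766775 to 79771312), had 130, 156 and 140 CPM in wild-type, 56.3, 140 and 120 in heterozygous and 63.6, 44.8 and 121 in homozygous mutant libraries. The wild-type libraries lay closely together and above the homozygous mutants, and the heterozygotes spanned both. The log2 fold change was -0.89 ± 0.37 (SE, n = 3, edgeR adjusted p = 0.303). All 5 delta-2 genes had fold changes below 0, but *Pcdh10*, *Pcdh17*, *Pcdh18* and *Pcdh19* had at most 258 reads in a library and standard errors over 2. *Pcdh18*, for one, had 17, 161 and 222 reads in wild-type, 2, 161 and 165 in heterozygous and 2, 1 and 79 in homozygous mutant libraries, and *Pcdh19*, an X-linked gene of neuronal adhesion, had 1, 199 and 258, then 0, 117 and 2, then 0, 222 and 50.

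The 4 abundant genes named here kept their direction between homozygous mutants and wild-type in each of 19 alternative analyses, with log2 fold changes of -1.32 to -0.78 for *Pcdh1*, -1.10 to -0.64 for *Pcdh7*, -0.91 to -0.50 for *Pcdh20* and -1.39 to -0.47 for *Pcdh8*. *Pcdh1* was called by DESeq2 (adjusted p = 0.0595), by edgeR without the filter on low counts (0.0771) and by edgeR without wild-type 44 (0.0831), within a range of 0.0595 to 0.677 over the alternatives. *Pcdh7* was called by DESeq2 alone (adjusted p = 0.0743, range 0.0743 to 0.792). Beside them, 11 of the 12 HC markers lay below wild-type with a median log2 difference of -0.70. Of these 2, *Ocm* and *Espn*, were called lower (edgeR adjusted p = 0.00663 and 0.0236), beside 0.915% of all tested genes. In edgeR 7 markers were lower at an unadjusted p under 0.05, beside 8.19% of all tested genes. They were *Myo7a*, *Gfi1*, *Otof*, *Ptprq*, *Espn*, *Slc17a8* and *Ocm*. The paper names all 7 among its downregulated genes from the same libraries, and the list was chosen with such results known. Their lower values are thus no separate result. *Pou4f3*, *Lhx3*, *Myo6* and *Atoh1* lay near 0, with log2 fold changes of 0.03, -0.08, -0.10 and -0.11. In RNA of pooled cells, fewer cells of a type and less RNA per cell cannot be told apart, and the part of the HC markers in the protocadherin values was not tested.

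Among the cadherins outside the classical types, *Cdh13* (T-cadherin, which is held at the membrane by a lipid anchor and lacks the tail for catenins; chromosome 8, 118283733 to 119324921) showed the smallest p of all members. It had 136, 63 and 321 reads in wild-type, 280, 279 and 223 in heterozygous and 1, 5 and 2 in homozygous mutant libraries. All 6 libraries with a wild-type allele held at least 63 reads and the 3 homozygous mutants at most 5. Scaled to depth, the pooled homozygous mutant reads were 1.41% of the wild-type level (95% exact interval 0.606% to 2.80%, which covers counting error only) and 1.30% of the heterozygous level (0.559% to 2.58%). The fitted log2 fold change against wild-type was -6.12 ± 1.88 (SE, n = 3, edgeR adjusted p = 0.162). DESeq2 called *Cdh13* lower (adjusted p = 0.000197), and over the alternatives the adjusted p ranged from 0.000197 to 0.742 and the log2 fold change from -7.32 to -5.03. Its mean was 5.57 CPM, and 65.9% of all tested genes at 5 to 10 CPM had 5 or fewer reads in 1 library and 100 or more in another.

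*Cdh26*, the other tested cadherin of this group, had 110, 53 and 0 reads in wild-type, 0, 81 and 1 in heterozygous and 1, 245 and 2 in homozygous mutant libraries, so every genotype held both low and high libraries. Its log2 fold change turned from 0.97 to -5.41 without homozygous mutant 46. *Cdh16* and *Cdh17*, known from kidney and intestine, had 0 reads in every library, which allows up to 0.0860 to 0.165 CPM depending on the library.

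**Figure D2:**
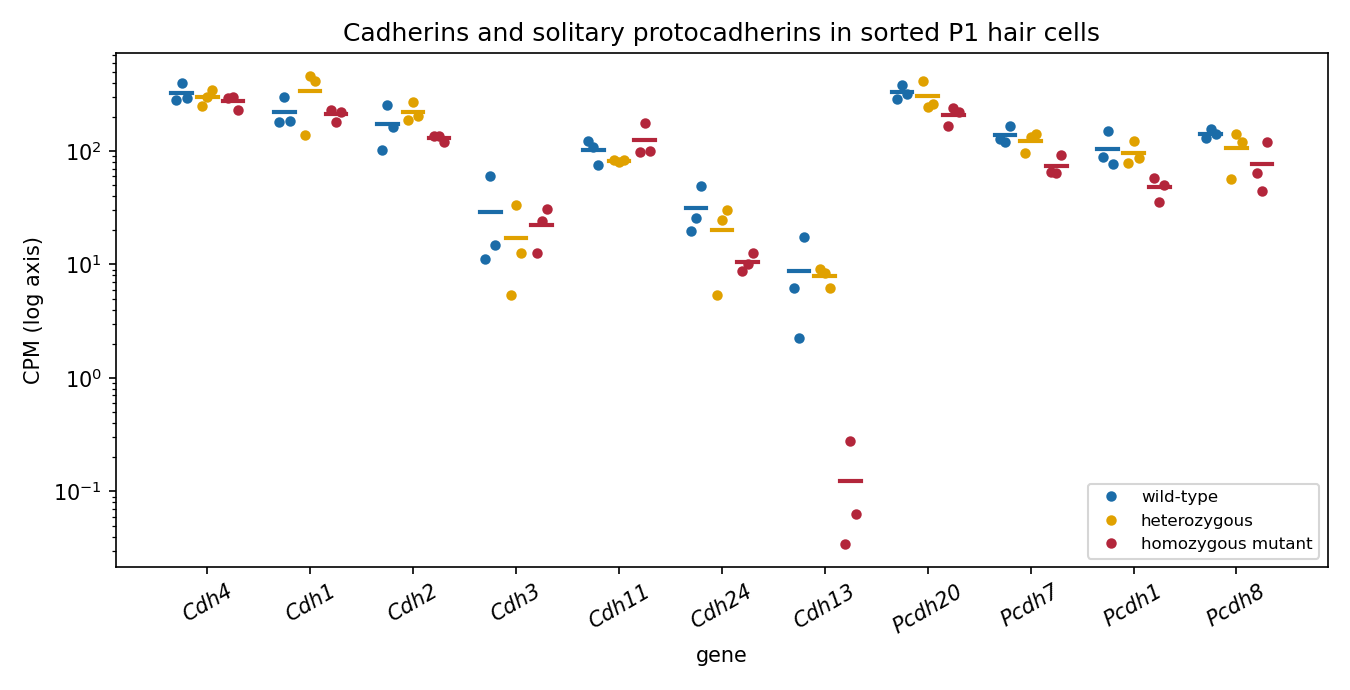
CPM on a log axis of 11 named cadherins and solitary protocadherins, with 1 point per library in wild-type, heterozygous and homozygous mutant HCs and a bar at the mean of the 3 libraries. The 3 homozygous mutant points lie below the 3 wild-type points for *Cdh24*, *Cdh13*, *Pcdh20*, *Pcdh7*, *Pcdh1* and *Pcdh8*, and the wild-type and homozygous mutant points overlap for *Cdh4*, *Cdh1*, *Cdh2*, *Cdh3* and *Cdh11*.

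The type I classical cadherins held the highest summed level, 755 ± 229 CPM in wild-type, 894 ± 244 in heterozygous and 648 ± 29.8 in homozygous mutant HCs (SD, n = 3), and 0 of the 5 genes had an unadjusted p under 0.05 between homozygous mutants and wild-type. By CPM per kb of exon, *Cdh1* (55.8), *Pcdh20* (51.1) and *Cdh4* (41.1) stood first over the 9 libraries, before *Pcdh8* (23.8) and *Cdh2* (21.6). In wild-type alone the order of the first 3 was *Pcdh20* at 59.9 ± 8.88, *Cdh1* at 48.3 ± 14.7 and *Cdh4* at 44.5 ± 8.52 CPM per kb (SD, n = 3), and these neighbours overlapped within their spread.

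*Cdh4* varied the least of these genes, with 282, 394 and 293 CPM in wild-type, 249, 301 and 345 in heterozygous and 294, 297 and 232 in homozygous mutant libraries. Homozygous mutants and wild-type differed by -0.24 on the log2 scale (95% interval -0.72 to 0.25), and the genotypes overlapped. *Cdh2* had 103, 253 and 162 CPM in wild-type, 188, 270 and 204 in heterozygous and 136, 135 and 121 in homozygous mutant libraries. The homozygous mutants lay between the wild-type libraries and below all heterozygotes, with log2 fold changes of -0.40 (interval -0.99 to 0.19) against wild-type and -0.75 against heterozygotes.

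*Cdh1* and *Cdh3*, neighbours on chromosome 8 that encode the epithelial E- and P-cadherins, were both high in wild-type 55 and heterozygous 48. *Cdh1* had 179, 299 and 186 CPM in wild-type, 138, 455 and 411 in heterozygous and 229, 181 and 220 in homozygous mutant libraries. *Cdh3* had 11.2, 60.6 and 14.7 CPM in wild-type, 5.38, 33.2 and 12.7 in heterozygous and 12.7, 24.1 and 30.6 in homozygous mutant libraries. For *Cdh1* these libraries and heterozygous 51 were the 3 highest, and for *Cdh3* the third was homozygous mutant 47. The 12 supporting cell markers summed to 5232, 4837 and 3962 CPM in wild-type 55, heterozygous 48 and heterozygous 51. In the others the sum was 2151 to 3853 CPM. Its largest parts in wild-type 55 were *Tecta*, *Otog* and *Sparcl1*, with 1643, 1592 and 932 CPM. Not all markers ran alike. *Sox2* had 404, 267 and 316 CPM in wild-type 55, heterozygous 48 and heterozygous 51, and 240 to 348 in the others. *Fgfr3* was highest in homozygous mutant 47 (195 CPM). By genotype the marker sum was 2478 to 5232 in wild-type, 2345 to 4837 in heterozygous and 2151 to 3853 in homozygous mutant libraries. No marker was at 0 in every library, and the part of the sum in the *Cdh1* and *Cdh3* values was not tested. Between homozygous mutants and wild-type the log2 fold changes were -0.07 (interval -0.74 to 0.59) for *Cdh1* and -0.36 (-1.83 to 1.11) for *Cdh3*. They became 0.58 and 1.11 with the mouse number term. *Cdh15* (M-cadherin), the last of type I, ranged from 1 read in wild-type 59 and 4 in homozygous mutant 43 to 1147 in heterozygous 45.

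Of the 13 type II cadherins 6 were tested, and *Cdh24* and *Cdh11* led them. *Cdh24* had 19.7, 25.5 and 49.3 CPM in wild-type, 5.38, 24.4 and 30.4 in heterozygous and 8.81, 10.2 and 12.5 in homozygous mutant libraries. The homozygous mutants lay below wild-type, and heterozygous 45 lay below them. The log2 fold change was -1.58 ± 0.72 (SE, n = 3, edgeR adjusted p = 0.350), and -1.83 to -0.51 over the alternatives.

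*Cdh11*, a cadherin known from mesenchyme, had 121, 109 and 74.8 CPM in wild-type, 82.9, 80.4 and 83.1 in heterozygous and 98.5, 178 and 101 in homozygous mutant libraries. Homozygous mutant 46 stood above the other 8, and the log2 fold change of 0.30 (interval -0.32 to 0.93) became -0.01 without it. *Cdh18* ranged from 106 to 815 reads and had a log2 fold change of -0.03 ± 1.01. *Cdh8* had 0, 34 and 0 reads in wild-type, 0, 0 and 105 in heterozygous and 0, 224 and 43 in homozygous mutant libraries.

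*Cdh19*, *Cdh6* and *Cdh5* each had nearly all reads in 1 library. *Cdh19*, known from Schwann cell precursors, had 237 reads in homozygous mutant 46 and at most 1 read in any other library, and *Cdh6*, named after its values were seen, had 254 there and at most 1 elsewhere. Homozygous mutant 46 also held the highest sums of the 8 glia markers (415 CPM against 165 to 328 in the others), of the 8 mesenchyme markers (881 against 128 to 269) and of the 7 endothelium markers (34.4 against 4.23 to 17.1). By genotype the glia sum was 165 to 328 CPM in wild-type, 232 to 263 in heterozygous and 199 to 415 in homozygous mutant libraries. The mesenchyme sum was 134 to 269, 128 to 207 and 132 to 881 CPM, and the endothelium sum 7.04 to 13.4, 4.23 to 16.7 and 4.82 to 34.4 CPM. Of the defining genes *Esam* was at 0 in every library, and no glia or mesenchyme marker was. *Cdh5* (VE-cadherin), the cadherin of endothelium, had 84 reads in homozygous mutant 43, 3 in wild-type 55 and 0 in the other 7 libraries. The endothelial markers *Pecam1*, *Kdr*, *Emcn* and *Cldn5* had 0 reads in homozygous mutant 43, *Tek* had 1 and *Egfl7* 492. In homozygous mutant 46 *Pecam1*, *Cldn5* and *Esam* had 0 reads, *Tek* 191, *Emcn* 157, *Kdr* 26 and *Egfl7* 250. The part of these cells in the cadherin values was not tested.

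Clustered protocadherins were spread over many low members. The 58 genes together held 242 ± 52.4 CPM in wild-type, 234 ± 44.04 in heterozygous and 201 ± 81.7 in homozygous mutant HCs (SD, n = 3), so the sums overlapped. *Pcdhb* members summed to 111 ± 20.2, 99.8 ± 17.6 and 99.5 ± 42.5 CPM in the 3 genotypes, *Pcdhg* members to 108 ± 45.4, 102 ± 18.02 and 84.9 ± 45.2, and *Pcdha* members to 23.2 ± 15.9, 32.9 ± 8.96 and 16.4 ± 7.23. The *Pcdha* and the *Pcdhg* genes each share their last exons within the cluster, so that only 8.56% to 61.1% and 33.2% to 68.5% of the exon bases of a gene belong to it alone, and reads in shared exons may be left out or split by a counter. Of a *Pcdhb* gene, 90.3% to 100% of the exon bases are its own.

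**Figure D3:**
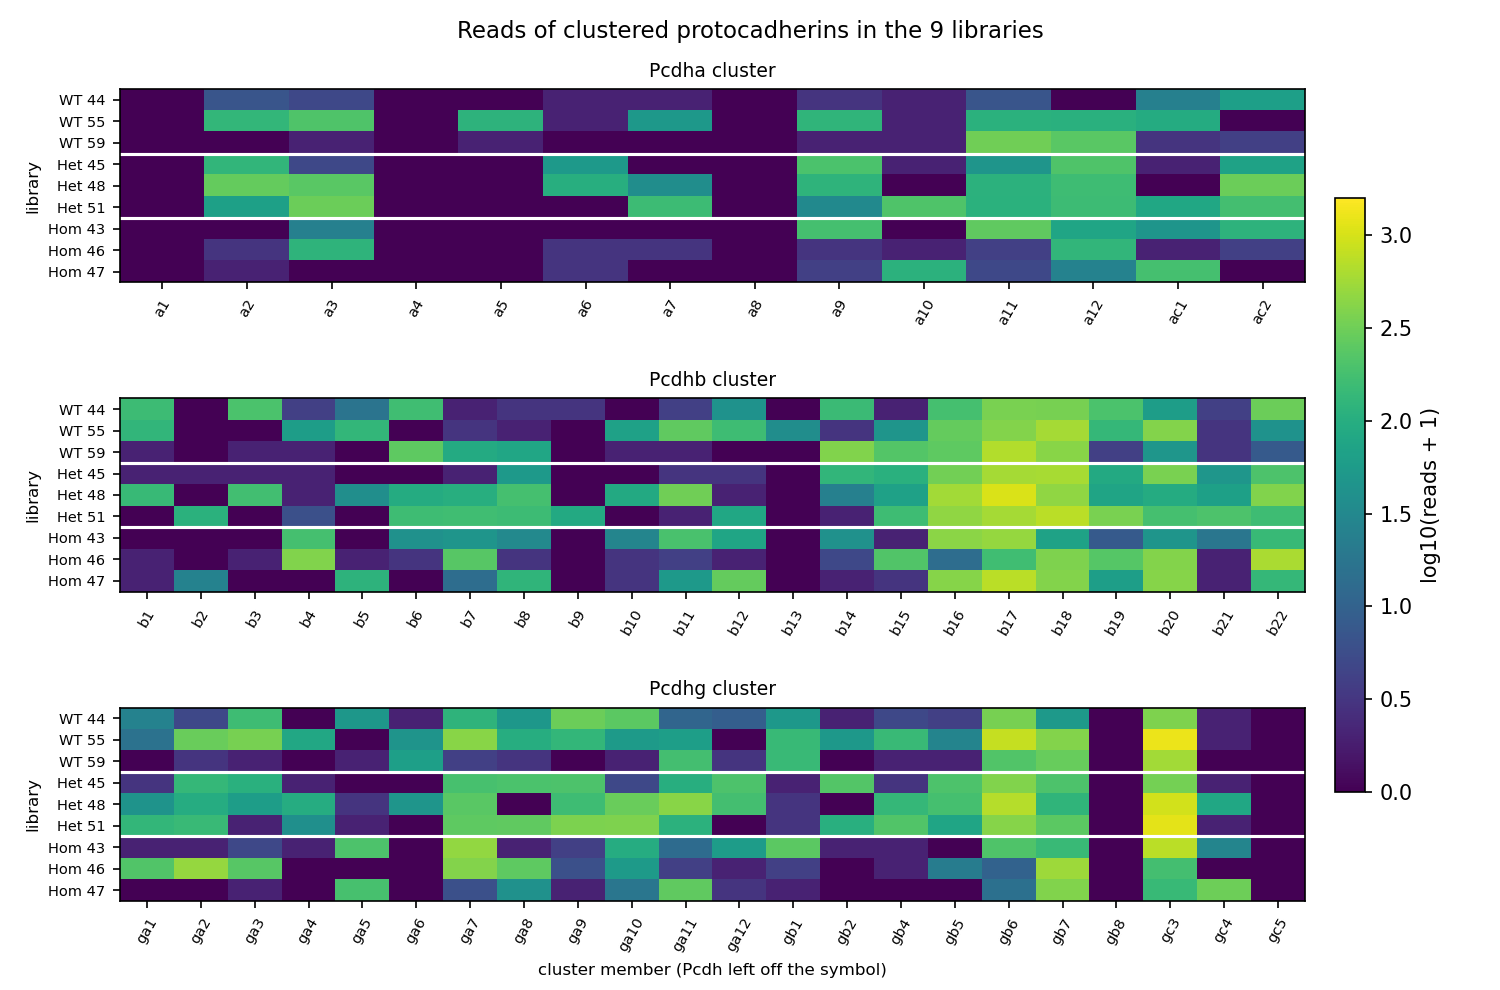
Reads of the 58 clustered protocadherins in the 9 libraries as log10(reads + 1), with 1 column per gene, 1 row per library and white lines between wild-type (WT), heterozygous (Het) and homozygous mutant (Hom) libraries. Dark and bright fields alternate within every genotype, and of the *Pcdhb* and *Pcdhg* columns 5 (*Pcdhb17*, *Pcdhb18*, *Pcdhb20*, *Pcdhgb7* and *Pcdhgc3*) are at 20 reads or more in all 9 libraries.

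Only 5 members, *Pcdhb17*, *Pcdhb18*, *Pcdhb20*, *Pcdhgb7* and *Pcdhgc3*, had 20 or more reads in all 9 libraries, and they made up 29.1% to 46.7% of the clustered CPM of a library. *Pcdhb17* had 16.3, 14.5 and 36.6 CPM in wild-type, 19.3, 31.4 and 16.1 in heterozygous and 17.0, 9.14 and 23.5 in homozygous mutant libraries. *Pcdhb18* had 16.0, 21.2 and 23.6 CPM, then 19.7, 13.9 and 20.3, then 2.39, 20.7 and 12.8. *Pcdhb20* and *Pcdhgb7* were highest in homozygous mutant 46, with 22.1 and 29.7 CPM, and ranged down to 1.60 and 2.33 CPM. The genotypes overlapped for all 4.

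The C-type genes close the *Pcdha* and *Pcdhg* clusters, and in neurons they are used apart from the choice among the other promoters. *Pcdhgc3* was the highest clustered gene by mean CPM (23.0), with 17.2, 46.3 and 30.9 CPM in wild-type, 10.9, 29.1 and 32.5 in heterozygous and 26.0, 9.69 and 4.51 in homozygous mutant libraries. Homozygous mutants and wild-type differed by -1.23 on the log2 scale (interval -2.62 to 0.15). *Pcdhac1* and *Pcdhac2* were at 0 to 9.02 CPM, and *Pcdhgc5* had no read. *Pcdhgc4* was the 1 member with a higher value at an unadjusted p under 0.05, with 1, 1 and 0 reads in wild-type, 1, 80 and 1 in heterozygous and 28, 0 and 310 in homozygous mutant libraries. Its log2 fold change was 6.79 ± 3.14 (SE, n = 3, edgeR adjusted p = 0.358), and homozygous mutant 46, at 0 reads, lay with wild-type. *Pcdhgc4* passed the read filter through the homozygous mutants alone, the group where it was high. Its higher value is thus not independent of the filter.

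Among the lower clustered members, *Pcdhgb6* had the highest level, with 16.1, 29.96 and 11.7 CPM in wild-type, 12.7, 21.0 and 11.6 in heterozygous and 7.29, 0.496 and 0.444 in homozygous mutant libraries. The homozygous mutants were the 3 lowest libraries, and 2 of them were near 0. The log2 fold change was -2.81 ± 1.12 (SE, n = 3, edgeR adjusted p = 0.286, DESeq2 adjusted p = 0.0785, range 0.0785 to 0.743 over the alternatives). *Pcdhga9* had 303, 132 and 0 reads in wild-type, 204, 162 and 366 in heterozygous and 3, 5 and 1 in homozygous mutant libraries, so that wild-type 59 lay with the homozygous mutants. The fitted log2 fold change was -5.49 ± 2.20 (SE, n = 3, edgeR adjusted p = 0.287, range 0.0215 to 0.757 over the alternatives). *Pcdhga6* and *Pcdhb1*, named after their values were seen, completed the 4 lower ones, with at most 63 and 157 reads in a library. Both passed the read filter through wild-type alone, the group where they were high, so their lower values are not independent of the filter.

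Every genotype held clustered members that were at high counts in some libraries and near 0 in others. Of the 522 values of the 58 genes in 9 libraries, 255 (48.9%) were at 0 to 5 reads, 252 (48.3%) at 20 or more and only 15 (2.87%) between, with a median of 161.5 reads among the values at 20 or more. These limits were chosen after the values were seen. The number of libraries in which a gene reached 20 reads ran from 0 (5 genes) to 9 (5 genes), with 13 genes at 3 and 12 at 5 libraries. A library held 17 to 41 of the 58 genes at 20 reads or more: 24, 38 and 17 in wild-type, 28, 41 and 37 in heterozygous and 28, 19 and 20 in homozygous mutant libraries. Wild-type 59 and homozygous mutant 46, with the fewest of these members, also had the fewest genes at 20 reads. Near the read limit for testing, *Pcdhgc4* (28 reads in the second library of its best genotype) and *Pcdha7* (36) lay just inside, and *Pcdhb5* (16) just outside.

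A split of this kind, with 5 or fewer reads in 1 library and 100 or more in another, was found in 35 of the 45 tested clustered members (77.8%), in 12 of the 23 tested members outside the clusters (52.2%) and in 25.3% of all tested genes. It followed the level. At a mean of 2 to 5 CPM, where 22 of the clustered members lay, all 22 were split and so were 97.9% of all tested genes. Under 2 CPM the shares were 84.6% of 13 members and 73.9% of genes, at 5 to 10 CPM 2 of 4 members and 65.9% of genes, and at 10 to 20 CPM 0 of 4 members and 12.9% of genes. No test of a difference between the members and all genes was made.

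**Figure D4:**
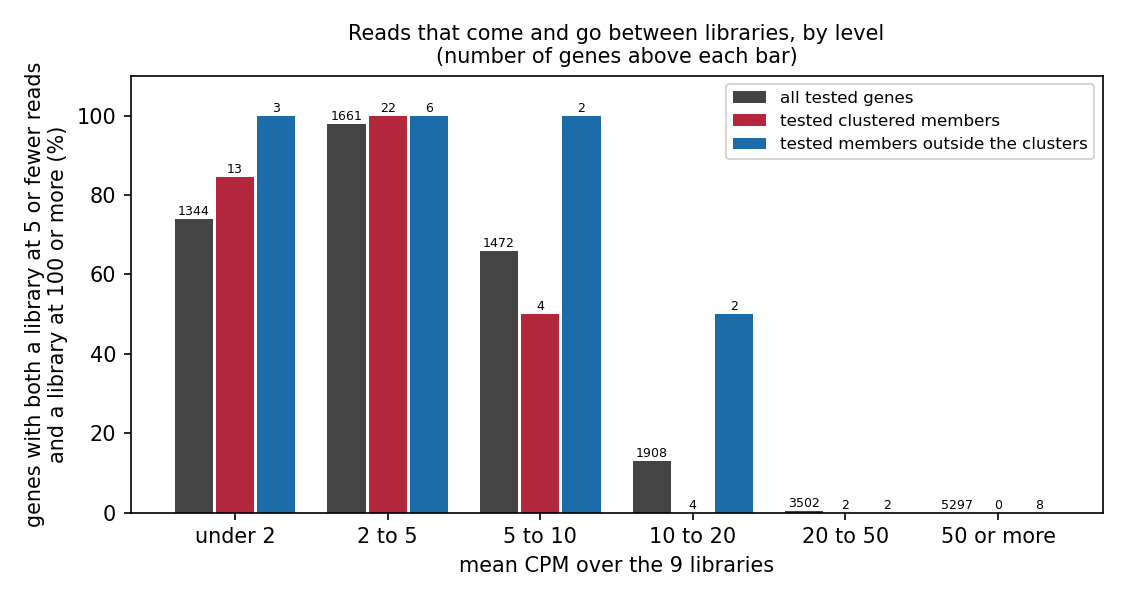
Percent of genes with both a library at 5 or fewer reads and a library at 100 or more (vertical axis) in 6 bands of mean CPM over the 9 libraries, for all tested genes, the 45 tested clustered members and the 23 tested members outside the clusters, with the number of genes above each bar. At 2 to 5 CPM the bars stand at 97.9%, 100% and 100%, and from 20 CPM on they are at or near 0 for every set.

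Between heterozygous and wild-type HCs edgeR called 0 members, beside 0% of all tested genes. At an unadjusted p under 0.05, 0 members were higher and 1 lower (1.79% and 2.73% of all tested genes), and without overlap of the libraries 3 were higher and 2 lower (5.41% and 5.38%), while DESeq2 called 1 member (0.296% of all tested genes) and limma-voom 0 (0.00659%). The median over the 68 members was -0.02 against -0.03 over all tested genes, and 33 lay above and 35 below wild-type. The lower gene was *Pcdhgb1*, named after its values were seen, with 50, 144 and 145 reads in wild-type, 1, 2 and 2 in heterozygous and 249, 3 and 1 in homozygous mutant libraries. The log2 difference of heterozygotes from wild-type was -6.57 ± 2.64 (SE, n = 3, edgeR adjusted p = 1, DESeq2 adjusted p = 0.0938). Homozygous mutant 43 had the most reads of all, so the values did not follow the number of Dmdo alleles. *Pcdhgb1* passed the read filter through wild-type alone, the higher group of this comparison, so its lower value is not independent of the filter.

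Between homozygous mutants and heterozygotes, edgeR called 0 members, beside 0.00659% of all tested genes, while DESeq2 called 3, beside 0.968%, and limma-voom 0, beside 0.994%. At an unadjusted p under 0.05, 11 members were lower (3.89% of all tested genes were) and 3 higher (2.9%), and without overlap 12 were lower (7.28%) and 1 higher (6.93%). This comparison shares the homozygous mutant libraries with that against wild-type. DESeq2 called *Cdh13* (log2 difference -6.04, DESeq2 adjusted p = 0.0011) and *Pcdhga9* (-5.74, DESeq2 adjusted p = 0.058) lower and *Pcdhb4* higher. *Pcdhb4* had 3, 60 and 1 reads in wild-type, 1, 1 and 5 in heterozygous and 181, 389 and 0 in homozygous mutant libraries. The log2 difference from heterozygotes was 6.999, with homozygous mutant 47 at 0 reads. *Pcdhb4* passed the read filter through the homozygous mutants alone, the group where it was high. Some of the lower members likewise passed it through the heterozygotes alone, so these counts are not independent of the filter.

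Over the number of Dmdo alleles (0, 1 or 2), edgeR called 0 members (1.78% of all tested genes, 0.435% higher and 1.34% lower), DESeq2 7 (6.84%) and limma-voom 2 (5.16%), and 7 members were lower and 1 higher at an unadjusted p under 0.05, beside 8.07% and 5.16% of all tested genes. *Pcdh1* had a slope of -0.57 ± 0.19 per allele (SE, 9 libraries, edgeR adjusted p = 0.159), *Pcdh7* of -0.46 ± 0.15 (edgeR adjusted p = 0.161), *Pcdh8* of -0.45 ± 0.18 (edgeR adjusted p = 0.260) and *Pcdh20* of -0.33 ± 0.13 (edgeR adjusted p = 0.262). limma-voom with quality weights called *Pcdh1* and *Pcdh20* (adjusted p = 0.0586 and 0.0649). The slopes use the same libraries as the pairwise comparisons.

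Of 24 partners of cadherins at adherens junctions (catenins, nectins, actin linkers and the proteases that cleave cadherins), 22 were tested. Between homozygous mutants and wild-type 0 of them were called, beside 1.15% of all tested genes. The median log2 difference was -0.07, with 12 below and 10 above 0, and 4 were lower and 0 higher at an unadjusted p under 0.05, beside 8.19% and 4.92% of all tested genes. *Ctnnb1* (beta-catenin), which binds the cadherin tail, had 996, 949 and 1037 CPM in wild-type and 946, 1267 and 1050 in homozygous mutant libraries, a log2 fold change of 0.13 ± 0.22. *Jup* (plakoglobin), a relative of beta-catenin, had 222, 484 and 246 CPM in wild-type, 204, 310 and 223 in heterozygous and 188, 132 and 197 in homozygous mutant libraries (log2 fold change -0.88 ± 0.30, edgeR adjusted p = 0.212). The other 3 were *Ctnnd2* (-0.74), *Nectin2* (-0.71) and *Pdlim1* (-6.27, with at most 146 reads). In heterozygotes the median was -0.03, with 0 genes under an unadjusted p of 0.05 in edgeR, beside 1.79% higher and 2.73% lower of all tested genes.

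The 27 genes that regulate clustered protocadherin promoters or carry their signals, such as *Ctcf*, cohesin and the Wave complex, were all tested. Between homozygous mutants and wild-type 0 were called, beside 1.15% of all tested genes (median -0.06, 16 below and 11 above 0). At an unadjusted p under 0.05 in edgeR, 2 were lower and 1 higher, beside 8.19% and 4.92% of all tested genes. *Wasf1*, a Wave subunit, had 106, 166 and 139 CPM in wild-type, 101, 124 and 116 in heterozygous and 62.6, 48.03 and 82.7 in homozygous mutant libraries. Its 3 homozygous mutant libraries were the lowest of the 9 (log2 fold change -1.09 ± 0.31, edgeR adjusted p = 0.124). *Wiz* and the cohesin subunit *Stag1* had log2 fold changes of -1.11 and 1.12 (edgeR adjusted p = 0.221 and 0.369). *Ctcf* had a log2 fold change of -0.45 ± 0.32.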

How the data were processed

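Raw counts of reads per gene in 9 libraries were deposited by the authors with no normalization, after alignment to GRCm38 with HISAT2 2.0.4 and counting with HTSeq (per the labels and the methods). The gene models and strand setting of the counting are not given in the sources used here, so reads of a member and an overlapping antisense gene may be mixed. Libraries were matched to genotypes through their labels, which name separate mice.

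Counts were scaled to CPM with TMM factors. Every gene with at least 20 reads in at least 2 of 3 libraries of any genotype was tested with edgeR 4.0.16 (quasi-likelihood, robust, 9 libraries in 1 fit), with Benjamini-Hochberg adjustment over 15184 genes, and called where the false discovery rate was under 10% and the fold change over 1.5, with no fold threshold for the slope over Dmdo alleles. DESeq2 1.42.0, limma-voom (limma 3.58.1), other scaling and filters, covariates and each library left out served as alternatives, and the scripts were tested on simulated data. Levels between genes are CPM per kb of GENCODE vM21 exon, and all 91 members matched by Ensembl ID. Reads are PCR products without molecular identifiers, so counting intervals cover counting error only. Tables and figures were made with R 4.3.3, Python 3.11.15, pandas 2.3.3, scipy 1.17.1 and matplotlib 3.10.9.

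The members and lists were chosen with earlier results of these data known. By the rule for named genes, the text names called members, the 5 of smallest p in each direction between homozygous mutants and wild-type, the 3 of highest CPM per kb in each class, *Cdh1*, *Cdh2*, *Cdh3*, *Cdh4*, *Cdh5*, *Cdh11*, *Cdh19* and *Pcdh9*, members at the read limit, and up to 4 genes of other lists by p.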

Additional observations from a re-analysis of the deposited data

How the results depend on the processing

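Members called numbered 0 in each comparison. DESeq2 called 6 between homozygous mutants and wild-type, 1 between heterozygotes and wild-type, 3 between homozygous mutants and heterozygotes and 7 over the Dmdo alleles. limma-voom with quality weights called 2 over the alleles, and edgeR without the filter on low counts called 1 between homozygous mutants and wild-type and 1 over the alleles. With each library left out in turn the counts ran from 0 to 1 between homozygous mutants and wild-type and from 0 to 2 over the alleles, the calls coming without wild-type 44. All other alternatives gave 0. Library totals in place of TMM moved the share of lower genes among all calls between homozygous mutants and wild-type from 79.4% (139 lower, 36 higher) to 67.1% (98 lower, 48 higher), DESeq2 to 63.3% (611 lower, 355 higher) and limma-voom to 62.7% (212 lower, 126 higher).

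Of the 31 named log2 fold changes between homozygous mutants and wild-type, 14 kept their direction in all 19 alternatives. The others were never called, and the cause of their reversals was not tested. With the mouse number term the values were 0.58 for *Cdh1*, 0.10 for *Cdh2*, 1.11 for *Cdh3*, 0.80 for *Pcdh18*, 6.71 for *Pcdh19*, 1.32 for *Pcdha11*, 0.69 for *Pcdha12* and 4.17 for *Pcdha3*. With limma-voom they were -2.82 for *Cdh26*, 0.11 for *Pcdh9*, 0.92 for *Pcdha12*, 0.054 for *Pcdhb17*, -0.42 for *Pcdhb20* and -2.09 for *Pcdhga1*. Without both wild-type 59 and homozygous mutant 46 they were -0.19 for *Cdh11*, -6.00 for *Cdh26*, 1.14 for *Pcdha11*, 0.41 for *Pcdhb17*, -0.22 for *Pcdhb20*, -0.70 for *Pcdhb22* and -5.29 for *Pcdhga1*. Library totals gave 0.008 for *Cdh1* and 0.052 for *Cdh18*, and a term for the sex transcripts gave 0.66 for *Pcdh19* and 0.17 for *Pcdhb17*. With each library left out in turn, the values ran from -0.21 to 0.20 for *Cdh1*, -0.013 to 0.46 for *Cdh11*, -0.34 to 0.28 for *Cdh18*, -5.41 to 2.24 for *Cdh26*, -0.74 to 0.80 for *Cdh3*, -3.14 to 0.35 for *Pcdh19*, -1.30 to 2.05 for *Pcdh9*, -5.58 to 0.57 for *Pcdha11*, -1.71 to 0.83 for *Pcdha12*, -2.60 to 4.31 for *Pcdha3*, -0.78 to 0.10 for *Pcdhb17*, -0.15 to 3.93 for *Pcdhb22*, -4.70 to 3.84 for *Pcdhga1* and -0.29 to 0.96 for *Pcdhgb7*.

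Per kb of exon bases shared with no other gene, *Pcdhgc3* moved from rank 13 to rank 9 of all members and the first 8 kept their ranks. The tested members with a mean under 10 CPM had standard errors over 1 log2 unit between homozygous mutants and wild-type, and the part of depth in this was not tested. No paired analysis was possible because the labels number single mice and give no litter or other pairing between genotypes.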

Other observations

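Besides the 10 members without a read, 13 members had reads but were not tested. *Pcdha5* had 117 reads and *Pcdhb13* had 36 in wild-type 55, *Cdh10* had 49 and *Pcdhb9* had 87 in heterozygous 51, and each had at most 2 reads in any other library. *Pcdhb2* had 110 reads in heterozygous 51 and 25 in homozygous mutant 47. *Pcdhb3* had 195 reads in wild-type 44 and 170 in heterozygous 48. These genes were picked after their values were seen.

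Of the lists of other cell types, the neuron markers (7 tested, 0 called) summed to 361 to 564 CPM. The macrophage markers (3 tested, 0 called) summed to at most 9.10 CPM and the melanocyte markers (2 tested, 0 called) to at most 15.9 CPM. Over all tested genes, 1.15% were called between homozygous mutants and wild-type.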
